A study of Mus musculus with 2 samples.

Results

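The p200 and IFITM genes are interferon-induced families that lie in clusters on mouse chromosomes 1 and 7. The 8 genes described here were chosen by name: Ifi203, Ifi204 and Mndal of the p200 family, and Ifitm1, Ifitm2, Ifitm3, Ifitm5 and Ifitm6. Each was read from the probe set annotated to that symbol alone, and 7 of the 8 had one, out of 22180 genes with such a probe set. Ifi203 had only a probe set shared with other symbols and has no value of its own. RNA was from Ly6C-hi monocytes, the inflammatory subset, which had been sorted out of colon lamina propria. One group was Nlrp6-/- mice (strain given as C57Bl/6) and the other WT mice (C57BL/6). NLRP6 belongs to the NOD-like receptors and can assemble an inflammasome. Both groups had received azoxymethane (AOM), a carcinogen, at 10 mg/kg, then for 5 days, starting on day 5, dextran sodium sulfate (DSS) at 2%, an agent that damages colon epithelium. Cells were taken on day 10. The age and number of mice, and how the Nlrp6 allele was made, are not given in the sources used here. Each genotype had 1 array, so the differences come without errors or p-values and describe these 2 arrays.

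Type I interferon binds its receptor on the cell surface, and the signal leads a complex that includes STAT2 and IRF9 to the interferon-stimulated response element (ISRE) in promoters of target genes. The p200 proteins carry HIN domains that bind DNA, most of them behind a pyrin domain for protein assembly. They act in DNA sensing, transcription and growth control, and several are abundant in myeloid cells. The IFITM proteins are small membrane proteins. IFITM1 to IFITM3 block the fusion of enveloped viruses with cell membranes, at the surface or in endosomes. IFITM5 is known instead from bone-forming osteoblasts, where it acts in mineralisation.

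Levels are robust multiarray average (RMA) values on the log2 scale, and differences are Nlrp6-/- minus WT. The detection floor, set at the 95th percentile of silent genes (1407 olfactory and vomeronasal receptor probe sets), was 3.22 in Nlrp6-/- and 3.26 in WT. The receptor genes' differences had an SD of 0.19. In 422 genes that had more than 1 probe set above both floors, the probe sets of a gene disagreed by a median of 0.31 and a 90th percentile of 0.79. Both measures come from the same arrays and do not measure variation between mice or sorts. Over 9540 genes above the floor on at least 1 array, the median difference was 0.01, with the middle 90% between -0.53 and 0.68. The sort kept CD11b+ Ly6C-hi cells without CD3 or Ly6G. Itgam, which encodes CD11b, was at 8.25 in Nlrp6-/- and 8.46 in WT, and Ly6c2 at 9.36 and 9.06 in the same order. Ly6g lay near the floor at 3.58 in Nlrp6-/- and 3.32 in WT. Of the CD3 subunit genes, Cd3d was at 4.99 in Nlrp6-/- and 4.52 in WT, Cd3e at 3.98 in Nlrp6-/- and 4.21 in WT, and Cd3g at 3.53 in Nlrp6-/- and 3.33 in WT. The targeted gene gave no check of the genotypes, since Nlrp6 was below the floor on both arrays, at 2.67 in Nlrp6-/- and 2.32 in WT.

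All 7 measured members were higher in Nlrp6-/-, by amounts from 0.08 to 1.04, and their median difference was 0.41. By any amount, 51.6% of all genes above the floor were higher. Mndal, Ifitm5 and Ifitm6 were at least 1.5-fold higher, 3 of 7 where 6.21% of all genes above the floor reached that fold. Only Mndal of the 7 reached 2-fold, against 1.61% of all genes. At 1.3-fold 4 of 7 were higher, with Ifi204 added, against 13.8% of all genes, and at 3-fold none, against 0.304%. None of the 7 was lower by any amount; of all genes, 9.92% were at least 1.3-fold lower, 3.05% at least 1.5-fold and 0.325% at least 2-fold. All 7 were above the floor on both arrays. The members sorted by difference fell into a group of 3 between 0.85 and 1.04 and a group of 4 at 0.41 or less.

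**Figure D1:**
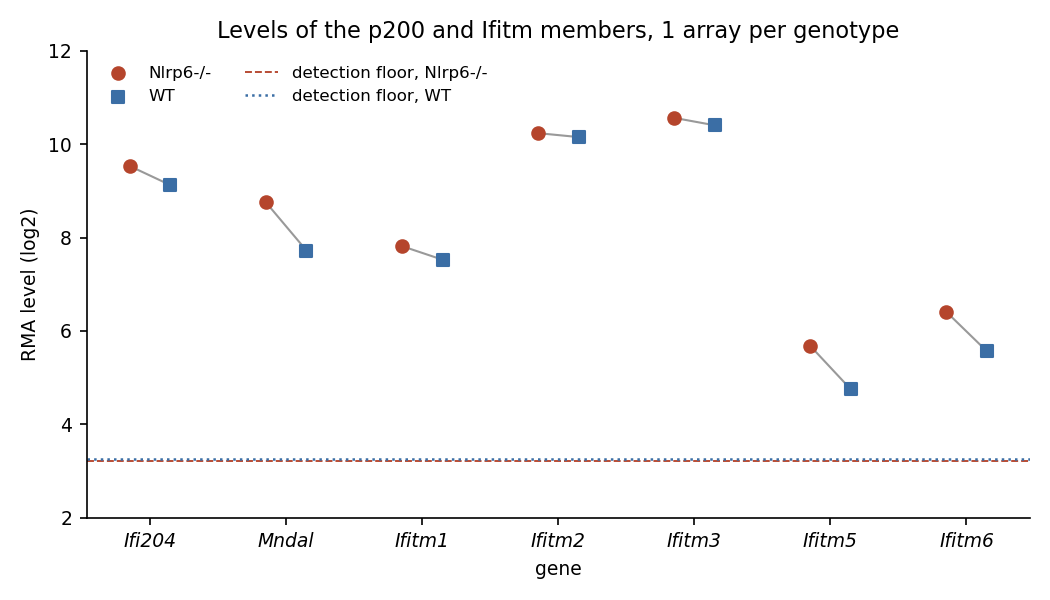
RMA level (log2) of the 7 measured members, with the Nlrp6-/- array as circles on the left and the WT array as squares on the right of each gene, and the detection floors as lines. Each gene is higher in Nlrp6-/-; Mndal, Ifitm5 and Ifitm6 have the steepest links, and levels of different genes are not comparable because each has its own probes.

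Mndal, a nuclear p200 protein related to the myeloid nuclear differentiation antigen, had the largest difference of the members. Its level was 8.76 in Nlrp6-/- and 7.72 in WT, a difference of 1.04 or 2.05-fold, which exceeds the 90th percentile of disagreement between probe sets of 1 gene. Ifi204 encodes p204, a mouse relative of the human DNA sensor IFI16 that is also known in macrophage differentiation. It was at 9.53 in Nlrp6-/- and 9.12 in WT, a difference of 0.41, which lies within that 90th percentile. The 2 measured p200 members thus differed by unequal amounts.

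The other p200 genes of the cluster included some with larger and some with smaller differences than the measured p200 members. A list of 15 symbols held 4 older names of genes also on it, and 9 of its 11 current genes had a probe set of their own. Of these 9, 7 passed the floor in either genotype, with a median of 0.33. Ifi213, a p200 protein with a pyrin domain, had the largest difference of the whole family: 6.85 in Nlrp6-/- and 5.08 in WT, a difference of 1.77 or 3.41-fold. The pseudogene Ifi203-ps was at 6.83 in Nlrp6-/- and 6.11 in WT, a difference of 0.72. Ifi207, a nuclear p200 protein, was at 9.19 in Nlrp6-/- and 8.66 in WT, a difference of 0.52. Aim2, the DNA sensor of an inflammasome, Ifi209 and Ifi205 were higher by 0.33, 0.27 and 0.20. For Aim2 the levels were 5.41 in Nlrp6-/- and 5.08 in WT, for Ifi209 9.99 and 9.72, and for Ifi205 10.27 and 10.07, in the same order. These small differences are of the size by which probe sets of 1 gene disagree.

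Ifi208 was the exception in direction, at 2.98 in Nlrp6-/-, under the floor, and 3.31 in WT, just above it, so that its bound was -0.09. Ifi202b, a p200 protein without a pyrin domain that restrains AIM2, was below the floor on both arrays, at 2.43 in Nlrp6-/- and 2.56 in WT. So was Ifi214, at 2.84 in Nlrp6-/- and 2.59 in WT. Over all 9 p200 genes above the floor, listed or not, 8 were higher and 3 were at least 1.5-fold higher. Of all genes above the floor, 51.6% were higher and 6.21% at least 1.5-fold higher. p200 genes arose by duplication and share long stretches, so probes of one may bind transcripts of another, and single p200 values are uncertain for that reason.

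**Figure D2:**
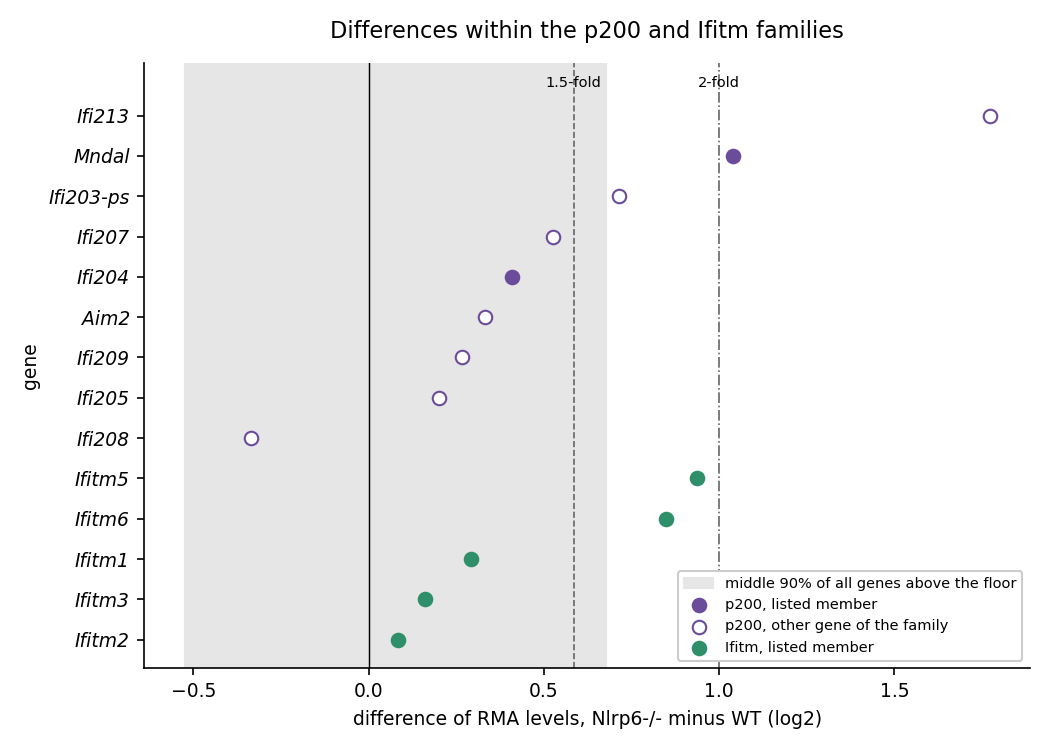
Difference of RMA levels, Nlrp6-/- minus WT (log2), for the p200 and Ifitm genes above the floor on at least 1 array; filled points are the listed members and the grey band holds the middle 90% of all genes above the floor. Ifi213, Mndal, Ifi203-ps, Ifitm5 and Ifitm6 lie to the right of the 1.5-fold line; Ifi208 is drawn at its measured value although its Nlrp6-/- level is below the floor.

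The start regions of the p200 genes carry interferon motif letters often. RefSeq promoter windows of build GRCm38.p6, from 250 bases before to 50 after a gene's start, were searched on both strands. They were available for 7 of the 8 members, all but Ifi204. The ISRE core was searched as the letters GAAA, any 2 bases, and GAAA again. It was found in 9 of 12 p200 genes, in 17 of 33 genes of a list of type I interferon-stimulated genes, and in 3.99% of all 27025 genes with windows. The gamma-activated site (GAS), an element of interferon gamma responses, was searched as TTCNNNGAA and was found in 1 of 12 p200 genes and 9.55% of all genes. The Mndal and Ifi213 windows are shown for the largest differences in the family, each from 120 bases before the start to 30 after, on the minus strand, with the ISRE letters in capitals.
Mndal, chr1:173880158-173880307: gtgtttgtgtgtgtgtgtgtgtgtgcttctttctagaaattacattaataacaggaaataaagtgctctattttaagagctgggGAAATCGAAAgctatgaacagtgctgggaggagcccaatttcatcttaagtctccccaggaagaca
Ifi213, chr1:173599243-173599392: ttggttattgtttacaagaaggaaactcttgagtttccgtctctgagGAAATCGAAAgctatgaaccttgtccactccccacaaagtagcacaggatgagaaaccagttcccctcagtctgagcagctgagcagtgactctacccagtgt
The match begins 36 bases before the start of Mndal and 73 bases before that of Ifi213. Another RefSeq start of Mndal has a match on the other strand, 54 bases upstream. Both matches shown lie inside the same run of 20 bases, GGAAATCGAAAGCTATGAAC. That run occurs in 5 of all 32851 windows, and these belong to Ifi203, Ifi206, Ifi208, Ifi213 and Mndal.

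Several p200 windows are near copies of each other. The aligned 300-base windows of Ifi209 and Ifi214 were 95.3% identical, those of Mndal and Ifi203 90.7%, and those of Ifi208 and Ifi213 89.5%. In each of these pairs 1 gene has no value of its own or lies at or under the floor, so their differences cannot be compared. Over all 66 pairs of p200 windows the median identity was 53.2%. Of the genes above the floor on both arrays with ISRE letters, Ifi213 differed by 1.77, Mndal by 1.04, Ifi207 by 0.52 and Ifi205, with 2 matches, by 0.20. Aim2 and Ifi209, with none in these windows, differed by 0.33 and 0.27. A match describes the letters of a window and is not evidence that a factor binds there.

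**Figure D3:**
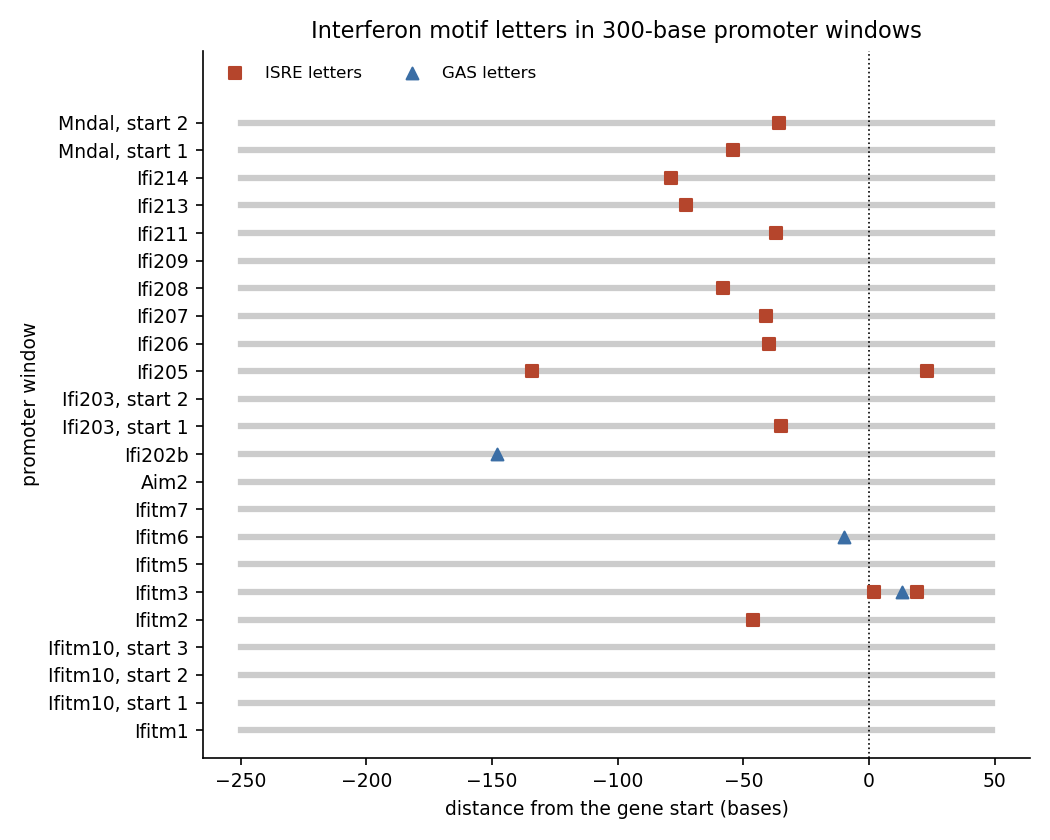
Positions of ISRE letters (squares) and GAS letters (triangles) in promoter windows of p200 and Ifitm genes, by distance in bases from the RefSeq gene start; genes with several starts have a line for each. ISRE letters begin 35 to 79 bases upstream of the start in 8 p200 genes, and of the Ifitm windows only those of Ifitm2 and Ifitm3 hold them.

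Among the IFITM members, the antiviral genes differed little and Ifitm5 and Ifitm6 more. Ifitm3, the endosomal restriction factor, was at 10.56 in Nlrp6-/- and 10.40 in WT, a difference of 0.16. Ifitm2, its close relative, was at 10.24 in Nlrp6-/- and 10.15 in WT, a difference of 0.08. Both differences are smaller than the SD of the silent receptors. Ifitm1, found more at the cell surface, was at 7.82 in Nlrp6-/- and 7.53 in WT, a difference of 0.29, just under the median disagreement between probe sets.

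Ifitm5, the osteoblast gene, was at 5.69 in Nlrp6-/- and 4.75 in WT, a difference of 0.94 or 1.91-fold. The 6 osteoblast genes with a probe set (Bglap, Ibsp, Sp7, Dmp1, Alpl and Phex) were all below the floor on both arrays. Ifitm6, a myeloid member of the family in mice, was at 6.42 in Nlrp6-/- and 5.57 in WT, a difference of 0.85 or 1.80-fold. Both differences exceed the 90th percentile of probe set disagreement, 0.79. With the floor raised to the 99th percentile of the silent receptors, at 5.07 in WT, the WT level of Ifitm5 fell under it and its difference became a bound of 0.61. Of the other IFITM genes, Ifitm10 was below the floor on both arrays, at 2.34 in Nlrp6-/- and 2.54 in WT, and Ifitm7 had only shared probe sets.

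In the IFITM windows, ISRE letters were found in 2 of 7 genes, against 3.99% of all genes. GAS letters were found in 2 of 7, against 9.55% of all genes. Of these windows 4 are shown: both with ISRE letters, and those of Ifitm5 and Ifitm6, the IFITM genes that differed most. All are of build GRCm38.p6 on the minus strand, from 120 bases before the start to 30 after. Capitals mark ISRE letters in Ifitm2 and Ifitm3 and GAS letters in Ifitm6, and the Ifitm5 window holds neither.
Ifitm2, chr7:140955932-140956081: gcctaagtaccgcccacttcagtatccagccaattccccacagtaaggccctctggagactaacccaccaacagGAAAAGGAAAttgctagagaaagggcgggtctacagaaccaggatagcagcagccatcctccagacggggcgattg
Ifitm3, chr7:141010715-141010864: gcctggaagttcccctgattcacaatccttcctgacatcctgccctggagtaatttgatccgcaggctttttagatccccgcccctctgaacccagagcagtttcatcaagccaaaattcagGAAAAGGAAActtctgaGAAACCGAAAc
Ifitm6, chr7:141016863-141017012: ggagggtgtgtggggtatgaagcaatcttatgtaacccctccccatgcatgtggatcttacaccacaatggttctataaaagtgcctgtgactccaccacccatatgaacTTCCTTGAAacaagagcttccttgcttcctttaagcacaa
Ifitm5, chr7:140950214-140950363: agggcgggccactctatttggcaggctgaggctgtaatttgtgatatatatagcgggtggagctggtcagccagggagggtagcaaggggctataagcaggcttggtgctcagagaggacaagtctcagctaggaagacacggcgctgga
The Ifitm2 match begins 46 bases before the start. Ifitm3 has matches beginning 2 and 19 bases after its start base, and a GAS match beginning 13 bases after it, which overlaps the second. In Ifitm6 the GAS match begins 10 bases before the start. The Ifitm1 window holds neither motif. Ifitm2 and Ifitm3, with ISRE letters, differed by 0.08 and 0.16. Of the members without them, Ifitm5 and Ifitm6 differed by 0.94 and 0.85, and Ifitm1 by 0.29. The 21 pairs of IFITM windows were between 45.2% and 51.8% identical.

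The IFITM cluster is next to the targeted gene. In RefSeq gene order on chromosome 7, Pgghg, a collagen glucosidase gene, is the only gene between Nlrp6 and Ifitm5, which is followed by Ifitm2, Ifitm1, Ifitm3 and Ifitm6. Pgghg was at 3.58 in Nlrp6-/- and 3.57 in WT, a difference of 0.01. Within 10 genes of Nlrp6 or a member, 8 other genes passed the floor in either genotype, with a median difference of -0.20. Of these, 3 were higher and 5 lower, where 51.6% of all genes above the floor were higher. None rose by 1.5-fold, but only 6.21% of all genes did, and 8 genes are too few to read that absence. Ric8a, a chaperone of G proteins, was at 4.18 in Nlrp6-/- and 4.80 in WT, a difference of -0.61. A fall of 1.5-fold was seen in 3.05% of all genes. Pkp3, counted as lower, was under the Nlrp6-/- floor at 3.09 and at 3.30 in WT, so that its bound was -0.08. Some of the 8, Pgghg among them, lay near the floor, where differences are not dependable. The closest member to Nlrp6, Ifitm5, and the farthest of the 5, Ifitm6, had the largest differences, and the 3 between them the smallest. Sequence carried along with the altered Nlrp6 allele and loss of the Nlrp6 product cannot be told apart in this design. Around the p200 members on chromosome 1, the 5 genes outside the family with a probe set were all below the floor.

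**Figure D4:**
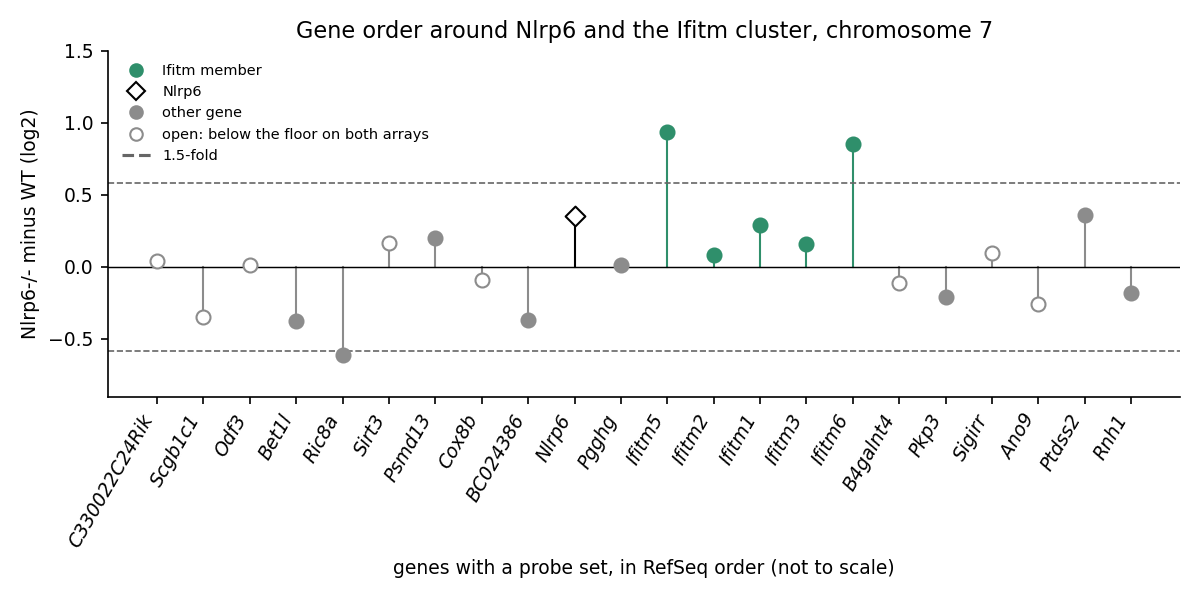
Difference, Nlrp6-/- minus WT (log2), of genes with a probe set around Nlrp6 and the Ifitm cluster in RefSeq order on chromosome 7; open points are below the floor on both arrays and dashed lines mark 1.5-fold. Ifitm5 and Ifitm6 stand above the upper line, and of the other genes only Ric8a reaches the lower one.

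A list of 44 type I interferon-stimulated genes was set beside the members. It had 39 genes with a probe set and 37 above the floor, with a median difference of 0.95 against 0.41 for the members. In that list 36 were higher, 28 at least 1.5-fold and 15 at least 2-fold. Of all genes above the floor, 51.6% were higher, 6.21% at least 1.5-fold and 1.61% at least 2-fold. Ifit3b, counted as higher, was under the WT floor, and its bound was only 0.01. The largest were Cmpk2, a mitochondrial nucleotide kinase, at 6.88 in Nlrp6-/- and 4.78 in WT, and Ifit1bl1, of the IFIT family that binds viral RNA, at 5.58 in Nlrp6-/- and 3.55 in WT. Ddx60, a helicase, was higher by 1.89 and Usp18, the ISG15 protease, by 1.84. Samhd1, a nucleotide hydrolase that restricts retroviruses, was the only one lower, by -0.06.

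Each member was set beside the listed gene with the nearest difference, among 36 above the floor on both arrays. Mndal came nearest to Dhx58, an RNA sensor of the RIG-I family, at 1.03, and 13 of the 36 had a larger difference than Mndal. Ifitm5 came nearest to the exonuclease gene Isg20 at 0.93, and Ifitm6 to Trim30a, a TRIM protein, at 0.88. For Ifi204 it was Oasl2 at 0.47, an oligoadenylate synthetase-like gene. Ifitm1 came nearest to Parp9 at 0.32, and Ifitm2 and Ifitm3 to Parp14 at 0.19, both ADP-ribosyltransferase genes. For Ifitm2 and for Ifitm3, 35 of the 36 listed genes had a larger difference. Likeness here is the gap between single differences over 2 arrays.

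Among interferon receptor and signalling genes, those that differed most are themselves interferon-stimulated. Of 14 interferon receptor, kinase, STAT, IRF, SOCS and Usp18 genes above the floor, the last a brake on receptor signalling, 9 were higher, with a median of 0.16. The 4 at least 1.5-fold higher were Usp18, Irf7 (6.95 in Nlrp6-/- and 6.17 in WT), Stat2 (8.08 and 7.37) and Irf9 (6.89 and 6.18), all of which are also in the list of interferon-stimulated genes. Irf7 amplifies interferon transcription, and Stat2 and Irf9 are parts of the factor that binds the ISRE. The receptor genes differed less: Ifnar1 was at 8.25 in Nlrp6-/- and 8.05 in WT, and Ifnar2 at 10.22 in Nlrp6-/- and 10.30 in WT. Ifnb1, the interferon beta gene, was below the floor on both arrays, at 2.70 in Nlrp6-/- and 2.90 in WT.

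The measured partners of p200 proteins in DNA sensing and modifiers of IFITM proteins had medians near that of all genes. Of 12 DNA sensing genes listed, 9 had a probe set of their own and 8 were above the floor. Tmem173, Mb21d1 and Trex1 had none under these names and were not compared. Of the 8 DNA sensing genes above the floor, 5 were higher and none reached 1.5-fold in either direction, with a median of 0.13. Zbp1, a sensor of Z-form nucleic acids that is also in the interferon list, was at 9.09 in Nlrp6-/- and 8.56 in WT, and Irf3, the transcription factor that sensing activates, at 5.42 in Nlrp6-/- and 5.84 in WT. Casp1, the inflammasome protease, was higher by 0.39 and Ddx41, a helicase linked to DNA sensing, by 0.38. Of 11 genes for enzymes and partners that act on IFITM proteins, known mostly from human cells, 5 were higher and 6 lower, with a median near 0; none was 1.5-fold higher and 1, Vapa, was 1.5-fold lower. Vapa, an endoplasmic reticulum protein that binds IFITM3, was at 7.26 in Nlrp6-/- and 7.85 in WT, a difference of -0.59. The methyltransferase gene Setd7 differed by -0.34, the ubiquitin ligase gene Nedd4 by 0.31 and the kinase gene Fyn by -0.15. Zdhhc20, a palmitoyltransferase that anchors IFITM3, was at 6.50 in Nlrp6-/- and 6.47 in WT.

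Markers of other cells were also mostly higher in Nlrp6-/-, where 51.6% of all genes above the floor were higher. Markers that passed the floor only in Nlrp6-/- were almost sure to count as higher. Numbers above both floors are therefore given where they are smaller. Epithelial markers above the floor were higher in 15 of 15, of which 11 were above both floors, with a median of 0.99. Their summed linear level was 786 in Nlrp6-/- and 350 in WT over 16 genes. Examples are Zg16, at a bound of 1.47, Lypd8 (1.87), Muc13 (1.79) and Lgals4 (1.57), while Krt20 was below both floors. Neutrophil markers were higher in 6 of 8, and 6 of these 8 were above both floors. Their median was 0.68, with sums of 1040 in Nlrp6-/- and 765 in WT. The higher ones included Retnlg at a bound of 1.95, S100a8 (1.16), S100a9 (1.03) and Lcn2 (0.87). Mmp8 (-0.17) and Csf3r (-0.05) were lower, and Mmp9, Camp, Ngp and Ltf were below both floors. B and plasma cell markers were higher in 8 of 8, of which 7 were above both floors. Their median was 0.58, with sums of 1715 in Nlrp6-/- and 1021 in WT. Mzb1 (1.62), Jchain (0.88) and Cd79a (0.74) led them, with Tnfrsf17 at a bound of 0.72, and Ms4a1 and Pax5 were below both floors. The sums of each list include genes below the floor, and genes with the highest levels weigh most in them. In the B and plasma cell list that gene was Jchain, at 10.09 in Nlrp6-/- and 9.22 in WT.

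Stromal and endothelial markers were higher in 9 of 13, with a median of 0.19 and sums of 1332 in Nlrp6-/- and 742 in WT. Here Mgp (1.45), Col1a2 (1.19), Lum (1.18) and Dcn (0.98) led, and the other 9 lay between -0.39 and 0.32. Cdh5 (-0.39), Acta2 (-0.16), Pdgfra (-0.08) and Des (-0.05) were lower, and Vwf was below both floors. T and NK markers were higher in 6 of 8, and 6 of these 8 were above both floors. Their median was 0.32, with sums of 201 in Nlrp6-/- and 157 in WT. Gzma was at a bound of 1.35, and Gzmb (0.87), Cd3d (0.46) and Cd8a (at a bound of 0.38) followed. Cd3e (-0.23) and Cd2 (-0.20) were lower. Cd4, Ncr1 and Klrb1c were below both floors. Monocyte markers had 5 of 11 higher, a median of -0.11, and sums of 7355 in Nlrp6-/- and 7879 in WT. F13a1 (1.06), Lyz2 (-0.33), Ccr2 (0.32) and Ly6c2 (0.31) differed most in that list. IFITM genes are expressed by epithelial and stromal cells as well as by monocytes, and the part of other cells in the members' differences was not tested. In RNA of a sorted population, more cells of a type and more RNA per cell cannot be told apart.

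**Figure D5:**
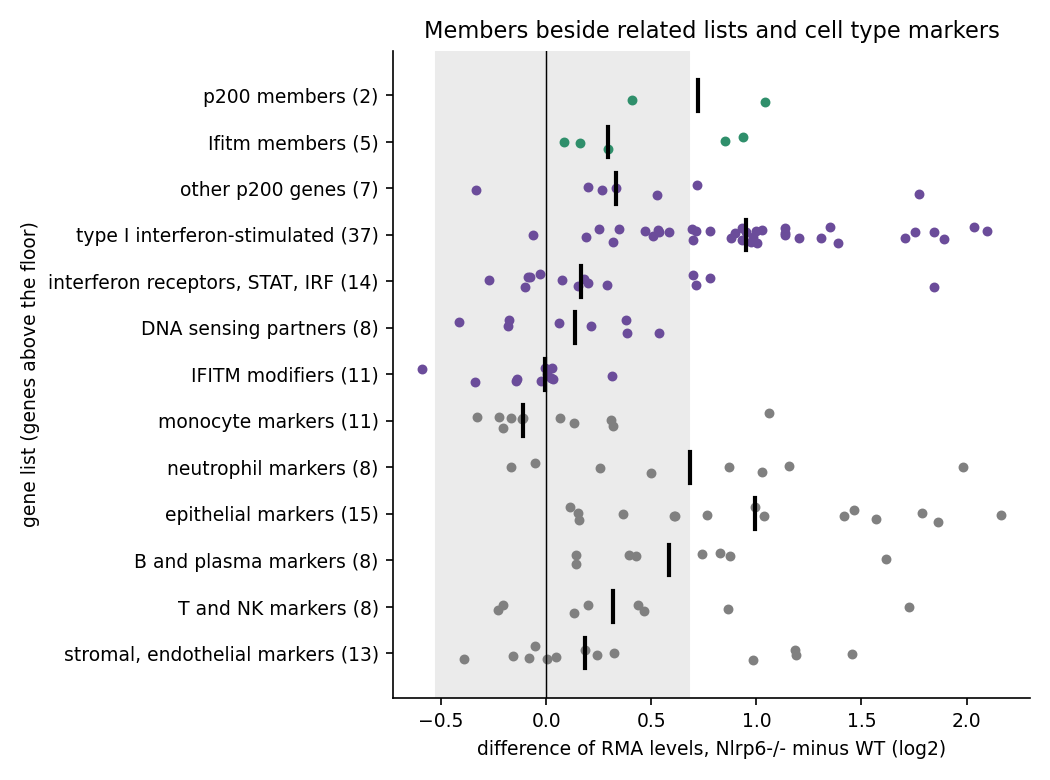
Differences, Nlrp6-/- minus WT (log2), at measured levels, of genes above the floor in the member groups (green), related interferon and partner lists (purple) and cell type marker lists (grey), with list medians as black bars and the middle 90% of all genes as a grey band; vertical scatter within a list has no meaning. The interferon-stimulated and epithelial lists have the highest medians, 0.95 and 0.99, and the IFITM modifiers centre on 0.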

How the data were processed

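RNA of sorted colon monocytes was measured on 1 Affymetrix Mouse Gene 2.1 ST array per genotype, and groups follow the genotype label. Per the labels' protocols, 10 ng of RNA was amplified, and the authors computed RMA values with the oligo package in R 2.15.1. The deposited values are log2 levels of 41345 probe sets, with column medians of 2.84 in Nlrp6-/- and 2.87 in WT. RMA equalises the arrays' distributions, so a shift of all transcripts cannot be seen. The sources used here do not say whether other arrays entered the normalization.

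Probe sets were named from the platform annotation: 23521 had 1 symbol, 1814 several and 16010 none, and only the first were used for genes. The probe set with the highest mean stood for a gene. Where only 1 of the arrays passed the floor, the difference became a bound against that floor, and calls used bounds while medians used measured levels. Promoter sequences are RefSeq's, of GRCm38.p6, and windows were aligned globally with Biopython 1.88. From the RefSeq gene table came current names and gene order, and no coordinates. The steps were checked on simulated arrays.

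The members, gene lists and thresholds were chosen with earlier results of these data known. Named genes were all members, the other genes of both families, up to 4 genes with the largest differences per list, the nearest interferon-stimulated gene per member, and neighbours that were 1.5-fold apart or lay between Nlrp6 and the Ifitm members. Further genes, chosen after their values were seen, were Itgam, Ly6g, Cd2, Cd3e, Cd3g, Cdh5, Acta2, Pdgfra, Des and Pkp3. Others were Mmp8, Csf3r, Ifit3b, Zdhhc20, Ifnar1, Ifnar2 and genes below the floor. Alternatives were another choice of probe set, 3 normalizations, other floors and other fold thresholds. The number of arrays limits the precision, so nothing was tested statistically.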

Additional observations from a re-analysis of the deposited data

Results flagged for a closer look

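Probe sets shared by several gene symbols were outside the comparison, and 2 of those that include a p200 symbol lay above the floor and were higher in Nlrp6-/- than in WT. The one shared by Ifi203, LOC100862473 and Ifi203-ps was at 8.89 in Nlrp6-/- and 7.96 in WT, a difference of 0.93. The one shared by Ifi211 and Ifi204 was at 10.38 in Nlrp6-/- and 10.09 in WT, a difference of 0.29. Neither can be read as a level of any 1 of these genes. Both shared probe sets that include Ifitm7 were below the floor on both arrays.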

How the results depend on the processing

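Under 3 other normalizations (centring on the median difference, repeating the quantile step, removing a loess curve of span 0.3) the 21 values of members kept their sign and none moved by more than 0.02. A floor alters a member's difference only where a level falls under it, which happened for Ifitm5, at a bound of 0.61 with the floor at the 99th percentile. No member had more than 1 probe set, so the choice of probe set could not change a member. The 3 members at least 1.5-fold higher became 4 at 1.3-fold, with Ifi204 added, and 0 at 3-fold. Over all genes, 592 were at least 1.5-fold higher, 1314 at 1.3-fold and 29 at 3-fold. With the floor at the 99th percentile the count was 329, where 4954 genes were compared in place of 9540. No paired analysis was possible because each genotype had 1 array. With 1 array each, differences between mice, between sorts and between genotypes cannot be told apart, and levels near the floor have no dependable difference.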
